A study of Mus musculus with 6 samples.

Results

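The variable (V) segments of the T cell receptor were described here: the 163 features whose symbols begin with Trav (128 segments of the alpha chain, on chromosome 14) or Trbv (35 segments of the beta chain, on chromosome 6), of 32285 genes measured. They were read cell by cell in draining lymph nodes from 3 wild-type (WT1 to WT3) and 3 Pik3cg knockout (KO1 to KO3) mice, all immunized 3 times with NP-Ova, a hapten-coupled ovalbumin, in alum and taken at day 34. Pik3cg encodes the catalytic subunit of PI3K gamma. The labels give no strain, age or deleted part of the gene, nor the cells in which it was deleted. The labels describe a mixture of 70% cells enriched for switched B cells by a pan-B negative selection with an added IgD antibody, and 30% untouched cells, so the T cells were a by-product of a B cell preparation and their number per mouse is not that of the node. Hashtag antibodies marked the mouse of origin, and the pooled cells filled 2 like droplet lanes, which were summed. T cells were taken as the 3918 barcodes, of 19270 with a single hashtag and 23516 in all, that had at least 1 unique molecular identifier (UMI, a count of 1 RNA molecule) of Cd3d, Cd3e and Cd3g together and none of the B cell gene Cd79a. WT1, WT2 and WT3 gave 655, 1002 and 872 of them, and KO1, KO2 and KO3 gave 402, 597 and 390.

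A T cell receptor chain is put together in the thymus by joining a V segment to a joining segment, and in the beta chain also to a diversity segment. The V segment supplies most of the part of the chain that touches the MHC molecule, and most T cells use a single V segment per chain. Cells selected on MHC class II keep the coreceptor CD4 and cells selected on class I keep CD8. The alpha locus also holds the delta chain genes, and the Trav segments with dv in their names can serve either chain. In the mouse, the middle of the Trav array is repeated, and the copies carry d or n in their names. The kit used here captures the 5' end of each RNA, where the V segment lies, but only B cell receptor transcripts were amplified, so T cell V segments were read from the gene expression library alone.

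Sequences are given for 3 sets of related segments that gene expression reads had to tell apart. All sequences are the coding part of the V exon in the GENCODE vM21 annotation of GRCm38, 5' to 3', and capitals mark the bases that differ within a set. Trbv12-1 (chr6:41113775-41114067, plus strand) and Trbv12-2 (chr6:41119072-41119364, plus strand) were 89.1% identical, with 32 differing bases:
Trbv12-1: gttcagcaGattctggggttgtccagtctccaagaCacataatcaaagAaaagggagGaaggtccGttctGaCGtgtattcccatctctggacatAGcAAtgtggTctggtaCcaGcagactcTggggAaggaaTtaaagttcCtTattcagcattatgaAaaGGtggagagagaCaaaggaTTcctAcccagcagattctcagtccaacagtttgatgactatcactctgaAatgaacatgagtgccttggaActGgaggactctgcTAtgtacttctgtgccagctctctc
Trbv12-2: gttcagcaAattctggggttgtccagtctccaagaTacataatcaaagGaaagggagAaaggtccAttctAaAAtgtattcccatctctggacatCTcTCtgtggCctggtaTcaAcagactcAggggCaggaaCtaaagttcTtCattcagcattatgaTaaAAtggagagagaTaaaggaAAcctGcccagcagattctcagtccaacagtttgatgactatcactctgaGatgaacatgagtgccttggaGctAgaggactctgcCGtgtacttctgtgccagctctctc

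Trbv13-1 (chr6:41116175-41116468), Trbv13-2 (chr6:41121539-41121832) and Trbv13-3 (chr6:41130292-41130585), all on the plus strand, are shown because Trbv13-2 was found in more cells than any other V segment and Trbv13-3 was called by Ccl5 below. Trbv13-1 lies between the Trbv12 segments, and the other two lie beyond Trbv12-2. Trbv13-2 was 88.8% identical to Trbv13-1 and 91.8% identical to Trbv13-3, and Trbv13-1 and Trbv13-3 were 86.1% identical:
Trbv13-1: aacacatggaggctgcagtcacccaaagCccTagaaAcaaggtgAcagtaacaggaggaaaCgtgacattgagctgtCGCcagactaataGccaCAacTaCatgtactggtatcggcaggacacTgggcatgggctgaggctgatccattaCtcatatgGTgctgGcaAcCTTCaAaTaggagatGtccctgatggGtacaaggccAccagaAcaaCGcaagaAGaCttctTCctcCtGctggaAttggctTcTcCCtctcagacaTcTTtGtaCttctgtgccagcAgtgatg
Trbv13-2: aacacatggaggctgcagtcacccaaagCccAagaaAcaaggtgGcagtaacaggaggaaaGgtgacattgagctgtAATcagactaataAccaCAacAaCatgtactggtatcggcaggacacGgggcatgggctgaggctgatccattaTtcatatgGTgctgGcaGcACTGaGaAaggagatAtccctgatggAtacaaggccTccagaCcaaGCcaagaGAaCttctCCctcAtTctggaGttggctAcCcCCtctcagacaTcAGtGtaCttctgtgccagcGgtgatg
Trbv13-3: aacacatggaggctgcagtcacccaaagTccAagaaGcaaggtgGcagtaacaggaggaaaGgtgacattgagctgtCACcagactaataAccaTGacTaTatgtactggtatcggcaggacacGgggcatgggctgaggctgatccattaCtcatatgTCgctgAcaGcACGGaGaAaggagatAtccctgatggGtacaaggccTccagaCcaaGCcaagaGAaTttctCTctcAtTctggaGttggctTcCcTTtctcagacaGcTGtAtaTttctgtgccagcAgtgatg

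Trav15-1-dv6-1 (chr14:53559945-53560244, plus strand) and Trav15-2-dv6-2 (chr14:53649695-53649994, plus strand), 77.9% identical over the whole exon, are shown by at most their first 300 bases because their positive cells differed in how many held the delta constant gene Trdc:
Trav15-1-dv6-1: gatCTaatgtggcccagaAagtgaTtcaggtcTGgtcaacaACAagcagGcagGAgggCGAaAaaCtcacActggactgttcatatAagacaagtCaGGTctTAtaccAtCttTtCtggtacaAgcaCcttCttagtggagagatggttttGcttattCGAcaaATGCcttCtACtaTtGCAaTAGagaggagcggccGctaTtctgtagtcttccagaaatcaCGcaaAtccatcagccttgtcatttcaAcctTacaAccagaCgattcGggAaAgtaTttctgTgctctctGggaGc
Trav15-2-dv6-2: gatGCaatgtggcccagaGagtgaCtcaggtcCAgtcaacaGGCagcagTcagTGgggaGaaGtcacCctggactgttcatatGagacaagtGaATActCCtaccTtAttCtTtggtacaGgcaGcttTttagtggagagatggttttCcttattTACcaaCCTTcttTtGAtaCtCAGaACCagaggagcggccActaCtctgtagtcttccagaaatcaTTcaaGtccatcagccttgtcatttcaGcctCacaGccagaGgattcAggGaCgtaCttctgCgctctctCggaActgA

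Over all T cells the Trbv segments held 6470 UMIs and the Trav segments 1732. At least 1 Trbv UMI was found in 65.1% of T cells (95% Wilson interval 63.6 to 66.6) and at least 1 Trav UMI in 30.1% (28.7 to 31.5), at a median of 2485.5 UMIs per cell. In 13644 B cells (Cd79a at least 1, none of the 3 Cd3 genes), which should lack these RNAs, the shares were 0.257% (0.185 to 0.357) and 0.0733% (0.0398 to 0.135) at a median of 2055 UMIs. These intervals cover counting error only. Marker genes of T cells were present: the 8 genes of the receptor complex and coreceptors left after the 3 Cd3 genes of the rule summed to 1700 to 2090 counts per 1000000 UMIs (CPM) in each mouse. The 8 B cell markers left after Cd79a summed to 336 to 805 CPM, and 12 T cells (0.306%) also held a productive B cell receptor contig. The total depth of the T cells ran from 1071792 to 2710883 UMIs per mouse, and the Trbv segments took 5.91 to 6.74 of every 10000 of these UMIs. The lanes shared 241 barcode sequences, 2 of them among the T cells. Pik3cg gave 29, 60 and 59 UMIs in T cells of the WT mice (16.8, 22.1 and 25.8 CPM) and 29, 50 and 18 in those of the KO mice (26.8, 32.9 and 16.8 CPM). Its RNA was therefore still counted in the KO mice, and with the deleted part not given these counts do not check the genotype.

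Of the 35 Trbv segments, 25 had a UMI in T cells. All 22 annotated as functional were found, and of the 13 pseudogenes 3 were: Trbv24 with 31 UMIs in 30 cells, Trbv22 with 2 UMIs and Trbv28 with 1. The 6 segments with most UMIs were Trbv1 (779), Trbv13-2 (615), Trbv16 (570), Trbv3 (554), Trbv13-1 (455) and Trbv15 (434), which together made up 52.7% of Trbv UMIs. The order by positive cells was different. Trbv13-2 led with 376 cells, followed by Trbv3 with 252, while Trbv1 was found in 210 cells. A positive cell held on average 3.71 UMIs of Trbv1, 3.74 of Trbv17 and 3.59 of Trbv15, but 1.64 of Trbv13-2 and 1.54 of Trbv19. A share of UMIs therefore weights cells by how many UMIs of the segment were counted in each. The share of cells with a segment as the leading Trbv is also given below. It covers the segments called between CD4 and CD8 cells and by Ccl5 with the filter on low counts.

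**Figure D1:**
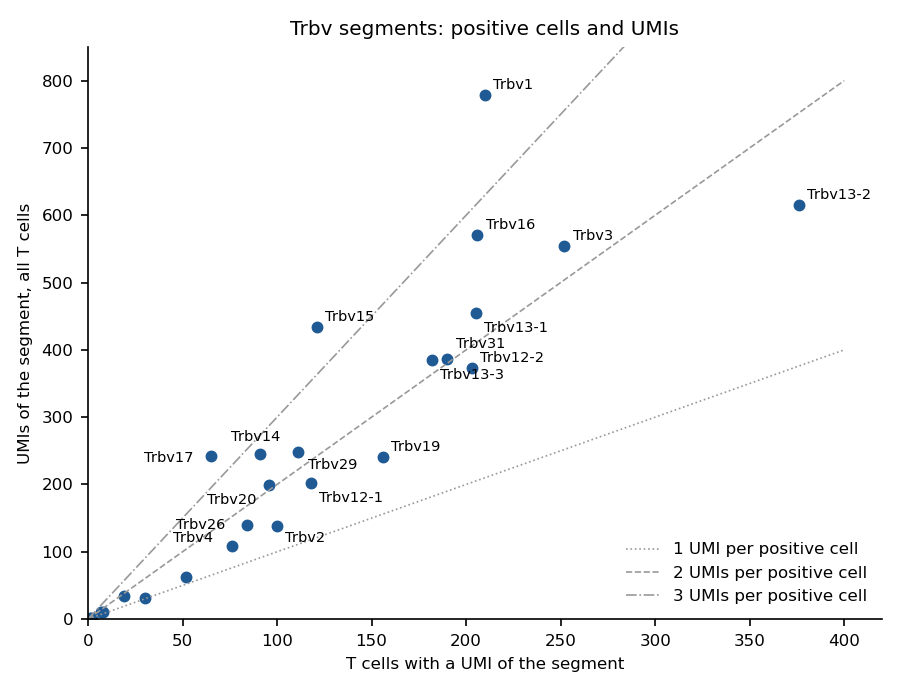
UMIs of each Trbv segment (vertical axis) against the number of T cells with at least 1 of its UMIs (horizontal axis), over the 3918 T cells of 6 mice; points are segments and the grey lines mark 1, 2 and 3 UMIs per positive cell. Trbv1 (779 UMIs, 210 cells) and Trbv15 (434 UMIs, 121 cells) lie above the line of 3 UMIs, and Trbv13-2 (615 UMIs, 376 cells) lies below the line of 2.

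Of the 2551 cells with a Trbv UMI, 2181 (85.5%) held a single Trbv segment, 333 held 2 and 37 held 3 or more. Trbv13-2 was in 118 (35.4%) of the 333 cells with 2 segments. The pair seen most was Trbv12-2 with Trbv13-2, in 28 cells, then Trbv13-2 with Trbv13-3 in 19 and Trbv13-2 with Trbv16 in 14. Of the 203 cells with Trbv12-2, 101 (49.8%) also held another Trbv, the highest share of the 19 Trbv segments found in at least 50 cells. Trbv17 followed with 38.5% and Trbv13-2 with 38.3%, the median was 22.9%, and Trbv4 was lowest with 13.2%. In 1085 of the Trbv-positive cells the leading segment rested on a single UMI. The source of the second segments was not tested.

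Of the 128 Trav segments, 76 had a UMI. Trav counts were limited by sequence: 38 segments shared every window of 90 bases (the window length chosen here) with another Trav segment, and 37 of these had no UMI, the other having 1. The 68 segments with at least 50% unique windows held 1589 of the 1732 UMIs, and every Trbv segment had 100% unique windows. Copies with d in their names made up 12.3% of Trav UMIs, copies with n 13.3% and unlettered segments 74.4%. The median unique share was 0.4% for the 39 d copies, 1.15% for the 34 n copies and 90.3% for the 55 unlettered segments. A count of 0 for a shared-sequence Trav segment is therefore no measure of its use. The leading Trav segments were Trav14d-3-dv8 (98 UMIs in 84 cells), Trav3-3 (93 in 81), Trav13-1 (86 in 62), Trav14n-3 (74 in 52), Trav12-2 (67 in 46) and Trav14-2 (65 in 52). These 6 made up 27.9% of Trav UMIs, against the 52.7% of the leading Trbv segments. As with the beta chain, 85.8% of Trav-positive cells held a single segment.

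**Figure D2:**
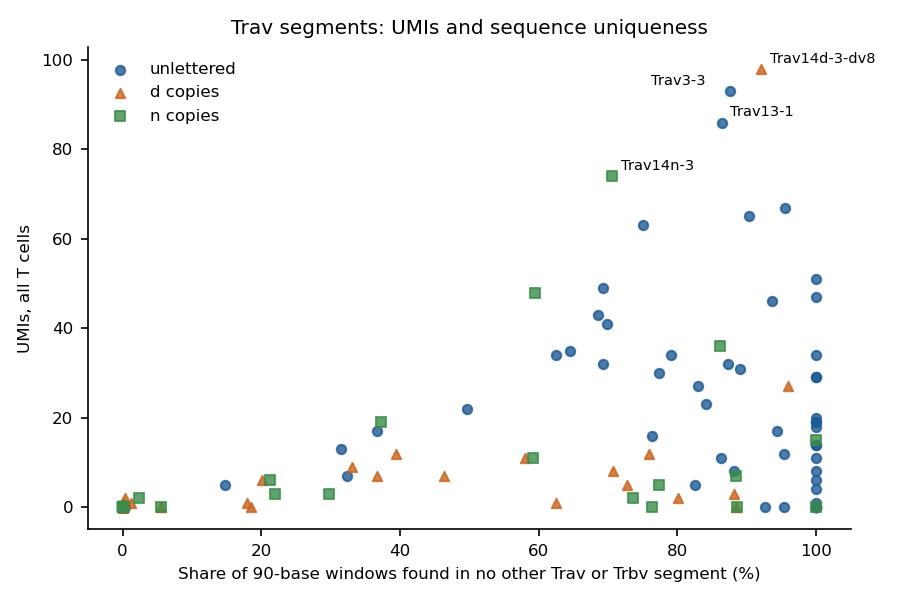
UMIs of each of the 128 Trav segments over all T cells (vertical axis) against the share of its 90-base windows found in no other Trav or Trbv segment (horizontal axis, percent); symbols give unlettered, d and n copies. The 38 segments at 0% unique windows hold 1 UMI in all, and the leading segments lie to the right.

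Segments tied to innate-like T cells gave few values. Invariant natural killer T cells pair Trav11 with Trbv13-2, Trbv29 or Trbv1. Trav11 and Trav11d had 0 UMIs, but 0.4% and 0.0% of their windows were unique, so such cells could not be recognised by their alpha chain. Trav1, the segment of mucosal-associated invariant T cells, has 100% unique windows and gave 19 UMIs in 15 cells of 4 mice. Of those 15 cells, 1 held Zbtb16, the transcription factor of innate-like T cells, and 0 held Trdc.

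The dv segments differed in how often their cells held Trdc, the constant gene of the delta chain. Trdc was found in 265 T cells (6.76%). Among cells with a dv segment 43 of 256 (16.8%) held Trdc, against 22 of 978 (2.25%) of cells with any other Trav. This share came mostly from a few segments. Trav15-2-dv6-2 had Trdc in 19 of its 22 cells, Trav13-4-dv7 in 10 of 23, Trav21-dv12 in 8 of 25 and Trav15-1-dv6-1, shown above beside Trav15-2-dv6-2, in 5 of 16. Trav15d-1-dv6d-1 had it in 3 of only 6 cells. Trav4-4-dv10 had it in 0 of 37 cells, Trav14d-3-dv8 in 0 of 84, Trav16d-dv11 in 0 of 11 and Trav6-7-dv9 in 1 of 42. Among the other Trav segments the share was highest for the pseudogene Trav8-2, with 3 of 11 cells. Of the cells with Trdc, 34.0% held a Trbv UMI, against 67.4% of cells without, at medians of 2311 and 2512 UMIs per cell. These are shares of pooled cells from 6 mice and were not tested.

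The first comparison asked whether V segments were used alike in CD4 and CD8 T cells. CD4 cells (Cd4 at least 1, no Cd8a or Cd8b1; 649 cells, median 2448 UMIs) were set against CD8 cells (Cd8a or Cd8b1, no Cd4; 1446 cells, median 2903 UMIs), while 1793 T cells showed neither coreceptor and 30 both. Trbv12-2, Trbv29, Trbv17 and Trbv14 were higher in CD8 cells, and Trbv1 and Trbv19 in CD4 cells. That is 6 of the 12 segments that passed the filter on low counts, 2 higher and 4 lower in CD4 cells, in edgeR's quasi-likelihood test with the mouse as block and Benjamini-Hochberg adjustment over all genes. Of all 4681 genes tested, 14.8% passed (6.58% higher and 8.22% lower). The median log2 difference was 0.07 over the 12 segments and 0.01 over all genes. The filter kept segments with enough UMIs in either class, and all 12 were Trbv segments. CD8 cells held 2616 Trbv UMIs and CD4 cells 1207, and segments low in CD4 cells could pass through the CD8 sums. Trbv12-2, the leading Trbv of 72 CD8 and 4 CD4 cells, was such a segment. Trbv2, Trbv31 and Trbv20, higher in CD4 cells, were removed. The split of 2 higher and 4 lower thus depends on the filter, and without it 7 were higher and 5 lower. In sums per mouse and class, fewer cells with a segment and less of its RNA per cell cannot be told apart.

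Trbv12-2 was lower in the CD4 cells of all 6 mice. Its usage, the share of a mouse's Trbv UMIs in that class, was lowest 6.47%, median 7.52% and highest 13.5% over the CD8 cells of the 6 mice, and 0.685%, 1.68% and 3.66% over the CD4 cells. The CD8 and CD4 values did not overlap. Tests ran on CPM over all genes, and counts of mice below are by CPM. The log2 difference (CD4 minus CD8, of CPM) was -1.89 (SE 0.27, edgeR adjusted p = 2.12e-06). By cells, a leading Trbv12-2 was found in 72 CD8 cells and 4 CD4 cells. It made up 8.13% ± 2.67 of CD8 cells with a leading Trbv and 0.666% ± 1.13 of CD4 cells (SD, n = 6 mice), and 9.0% ± 2.01 and 0.648% ± 1.02 when every cell was thinned to 1500 UMIs, leaving out 44 and 47 shallower cells.

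Trbv29 had a CD8 usage of 3.65%, 5.91% and 8.5% (lowest, median, highest of 6 mice) and a CD4 usage of 0.00%, 0.714% and 5.14%. It was lower in the CD4 cells of all 6 mice, with a log2 difference of -1.37 (SE 0.35, edgeR adjusted p = 0.00576). Trbv17 had 1.21%, 6.21% and 8.26% in CD8 cells and 0.00%, 0.643% and 6.16% in CD4 cells, where KO3 alone held over 1.29%. It was lower in CD4 cells of 5 mice (log2 difference -1.82, SE 0.47, edgeR adjusted p = 0.00583). Those values rest on few cells, since Trbv17 was found in 6 CD4 and 29 CD8 cells. Trbv14 was also lower in CD4 cells of 5 mice (log2 difference -1.07, SE 0.31, edgeR adjusted p = 0.0154). As the leading Trbv, Trbv29 was in 6.55% ± 1.58 of CD8 and 1.48% ± 1.67 of CD4 cells (SD, n = 6 mice). Trbv17 led in 2.67% ± 0.893 and 0.983% ± 1.58, a smaller share of CD8 cells than of their UMIs, and Trbv14 in 4.32% ± 2.77 and 2.25% ± 2.13.

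In the other direction, Trbv1 made up 7.48%, 12.2% and 21.9% of CD4 Trbv UMIs and 6.09%, 8.21% and 12.1% of CD8 Trbv UMIs (lowest, median, highest). Its values overlapped, and it was higher in CD4 cells of 5 mice (log2 difference 0.63, SE 0.17, edgeR adjusted p = 0.0069). Trbv19 made up 3.42%, 4.07% and 12.2% in CD4 cells and 1.62%, 2.33% and 7.26% in CD8 cells. It was higher in the CD4 cells of all 6 mice (log2 difference 0.90, SE 0.25, edgeR adjusted p = 0.0102). By cells, Trbv1 led in 9.41% ± 3.19 of CD4 and 7.0% ± 2.05 of CD8 cells, and Trbv19 in 7.14% ± 3.86 and 4.58% ± 3.27 (SD, n = 6 mice). The 3 Trbv13 segments did not pass: log2 differences were 0.02 (SE 0.24, edgeR adjusted p = 0.967) for Trbv13-1, 0.44 (SE 0.16, edgeR adjusted p = 0.073) for Trbv13-2 and 0.01 (SE 0.27, edgeR adjusted p = 0.993) for Trbv13-3.

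**Figure D3:**
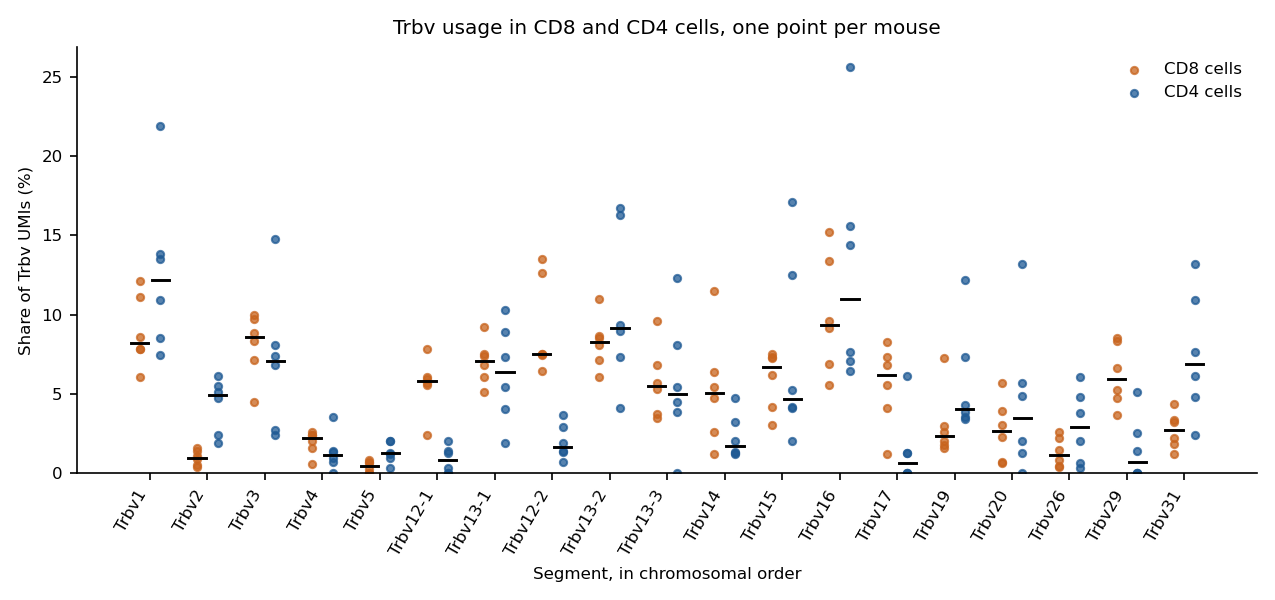
Share of Trbv UMIs (percent, vertical axis) held by each Trbv segment with at least 20 UMIs in CD4 and CD8 cells together, in chromosomal order; each point is a mouse and the bar is the median of 6. Trbv12-2 sits at a median of 7.52% in CD8 and 1.68% in CD4 cells, and Trbv31 at 2.72% and 6.86%.

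Several segments that the filter removed differed too, and they are named here after their values were seen. Without the filter 99 segments were tested and 12 passed, 7 higher and 5 lower in CD4 cells, where 5.3% of 15987 genes passed (1.98% higher and 3.32% lower). Trbv12-1, 89.1% identical to Trbv12-2, had a median usage of 5.82% in CD8 cells (lowest 2.42%, highest 7.84%) and 0.804% in CD4 cells (highest 2.04%). It was lower in the CD4 cells of all 6 mice (log2 difference -2.52, SE 0.36, edgeR adjusted p = 2.14e-10). Trbv2 had 0.985% in CD8 and 4.95% in CD4 cells and was higher in CD4 cells of all 6 mice (log2 difference 2.28, SE 0.35, edgeR adjusted p = 1.23e-08). Trbv31, the segment that lies beyond the constant genes on the minus strand, had 2.72% and 6.86% and was higher in CD4 cells of 5 mice (log2 difference 1.70, SE 0.24, edgeR adjusted p = 1.13e-10). Trbv20 followed with 1.24 (SE 0.28, edgeR adjusted p = 0.0003), higher in CD4 cells of 4 mice. Among Trav segments, Trav4-4-dv10 (2.47, SE 0.65, edgeR adjusted p = 0.00482, 12 CD4 and 6 CD8 cells) and Trav14d-3-dv8 (1.3, SE 0.42, edgeR adjusted p = 0.0383) were higher in CD4 cells.

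The number of calls moved with the settings. DESeq2 called 2 of 12 segments, Trbv12-2 and Trbv29, and 7.73% of all genes. Lane 1 alone called 0 of 5 segments and 11.8% of genes, and lane 2 alone 0 of 3 and 15.6%. Without WT2, 3 of 12 passed and 11.5% of genes, with Trbv1, Trbv14 and Trbv17 lost. Trbv1 was also lost without KO3 (edgeR adjusted p = 0.0534) and Trbv14 without KO2 (0.178). When cells with a UMI were counted in place of UMIs, with no filter, 5 of 99 segments and 3.22% of genes passed, namely Trbv12-1, Trbv12-2, Trbv29, Trbv2 and Trbv31. Among the fixed gene lists, the receptor complex had Trac (0.28, SE 0.07) and Cd247 (0.44, SE 0.09) higher and Cd3d (-0.21, SE 0.06) lower in CD4 cells, each past the threshold in edgeR, beside the 3 coreceptor genes that defined the classes. Trbc1 and Trbc2, the beta chain constant genes, had 0.10 (SE 0.08) and -0.02 (SE 0.07). Of the 10 gamma delta genes, 7 were in the files and all 7 were below the filter in this comparison. B cell markers summed to 258 to 1700 CPM in CD4 and 293 to 392 CPM in CD8 cells, and their part in the result was not tested.

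The second comparison set 144 cells with Foxp3, the transcription factor of regulatory T cells, and no Cd8 UMI (94 of them without a Cd4 UMI) against 599 CD4 cells without Foxp3. Only Trbv16 passed the filter, and it did not pass the test (log2 difference 0.44, SE 0.43, edgeR adjusted p = 0.547; 0 of 1 segments, 0 also at an unadjusted p under 0.05 and 0 by DESeq2). Of 1260 genes, 15.3% passed in edgeR and 29.3% had an unadjusted p under 0.05. Its usage was lowest 0.00%, median 15.7% and highest 38.2% in Foxp3 cells and 5.97%, 9.64% and 30.0% in other CD4 cells, from 40 UMIs in 13 Foxp3 cells. Without the filter 2 of 86 segments passed, Trbv31 and Trbv13-1, both lower in Foxp3 cells, where 2.95% of 14166 genes passed and 2.17% were lower. Trbv31 had 5 UMIs in Foxp3 cells and 97 in the others (log2 difference -2.48, SE 0.55, edgeR adjusted p = 0.000414), lower in all 6 mice. Trbv13-1 had 7 and 76 (-1.69, SE 0.53, edgeR adjusted p = 0.0447), lower in 5 mice. Both calls were lost when cells with a UMI were counted in place of UMIs, also without the filter. In that fit 0 of 86 segments passed in edgeR, where 1.21% of 14166 genes did. Beside Foxp3, which defined the class, the other 5 genes of the regulatory T list were all higher in the Foxp3 cells, and Cd74, a B cell and antigen-presenting gene, was higher too (2.52, SE 0.44, edgeR adjusted p = 0.000133). The B cell list summed to 382 to 1620 CPM in Foxp3 cells of WT mice and 539 to 7200 CPM in those of KO mice. The myeloid list summed to 102 to 192 CPM in WT and 41.5 to 1420 CPM in KO Foxp3 cells, and the NK list to at most 19.1 and 907 CPM, with 5 of its 7 genes at 0, Ncr1 among them. The part of these lists in the values was not tested. Without KO1, 3 segments were tested and Trbv16 was higher (0.97, edgeR adjusted p = 0.0335) and Trbv1 lower in Foxp3 cells, where 11.8% of 1839 genes passed.

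The third comparison set T cells with at least 2 UMIs of Ccl5 (386 cells, median 2758 UMIs), a chemokine of effector and memory T cells, against those with none (3427 cells, median 2456 UMIs); 105 cells with exactly 1 Ccl5 UMI were left out. Trbv12-2 was higher in the Ccl5 cells, and Trbv1, Trbv13-3, Trbv31 and Trbv3 were lower. That is 5 of 14 segments tested, 1 higher and 4 lower, where 9.7% of 5672 genes passed (5.85% higher and 3.84% lower). The median log2 difference was -0.52 over the 14 segments and 0.01 over all genes. With segments scaled to all Trav or all Trbv UMIs, the median over the 14 segments was -0.15. In that fit 4 of 14 passed, with Trbv3 lost, where 9.68% of genes passed. Ccl5 cells had a Trbv UMI in 56.7% of cells (51.8 to 61.6) and the others in 66.1% (64.5 to 67.6). Both are shares of cells pooled over the mice. Their Wilson intervals cover counting error only and not the spread between mice, so they do not test the classes against each other. The difference in these shares was not tested.

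Trbv12-2 gave 11, 9 and 27 UMIs in the Ccl5 cells of WT1, WT2 and WT3 and 16, 7 and 34 in those of KO1, KO2 and KO3. Its usage there was lowest 5.69%, median 16.2% and highest 40.5%, and in cells without Ccl5 3.36%, 4.56% and 5.88%. KO2 alone lay within the range of the cells without Ccl5. The log2 difference was 1.58 (SE 0.25, edgeR adjusted p = 5.71e-06), higher in 5 of 6 mice by CPM. By cells, Trbv12-2 led in 16.3% ± 11.1 of Ccl5 cells with a leading Trbv and 3.53% ± 0.815 of the others (SD, n = 6 mice), and in 17.8% ± 15.4 and 3.32% ± 1.09 at 1500 UMIs per cell. KO3 was highest, at 36.4% (8 cells). Trbv12-1, the segment closest to it in sequence, had 0.31 (SE 0.34, edgeR adjusted p = 0.704).

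Trbv1 made up 0.00%, 6.92% and 11.7% of Trbv UMIs in Ccl5 cells (lowest, median, highest) and 9.26%, 12.6% and 15.8% in the others. It was lower in the Ccl5 cells of all 6 mice (log2 difference -1.43, SE 0.26, edgeR adjusted p = 6.98e-05), a call lost with DESeq2 (-1.67, adjusted p = 0.0553) and among CD8 cells alone (-0.4, edgeR adjusted p = 0.645). Trbv13-3 fell to a median of 1.23% from 6.79%, in all 6 mice (-1.56, SE 0.34, edgeR adjusted p = 0.000954), and Trbv31 to 3.83% from 7.17%, in all 6 mice (-1.35, SE 0.30, edgeR adjusted p = 0.00104). Trbv3 was lower in 5 mice (-0.95, SE 0.27, edgeR adjusted p = 0.015), a call lost in 12 of its 21 alternatives, the fit without Trdc cells among them. The call for Trbv31 was lost with cells counted in place of UMIs and no filter (edgeR adjusted p = 0.0674). By cells, Trbv1 led in 4.17% ± 3.41 of Ccl5 cells and 8.93% ± 1.31 of the others, Trbv13-3 in 2.34% ± 3.52 and 6.69% ± 0.998, Trbv31 in 4.1% ± 2.68 and 7.42% ± 2.3, and Trbv3 in 6.84% ± 4.54 and 9.04% ± 2.28 (SD, n = 6 mice). At 1500 UMIs per cell Trbv13-3 led in 3.77% ± 4.21 and 6.18% ± 1.21. Trbv13-2 had -0.56 (SE 0.22, edgeR adjusted p = 0.0992) and Trbv13-1 -0.35 (SE 0.26, edgeR adjusted p = 0.517).

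**Figure D4:**
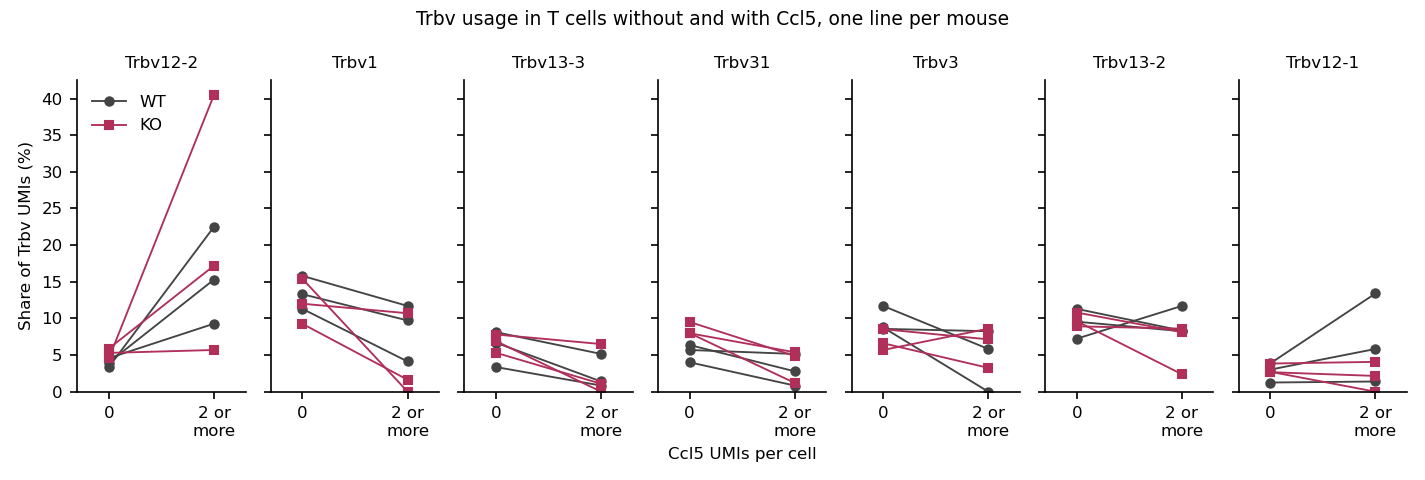
Share of Trbv UMIs (percent, vertical axis) in T cells with 0 and with 2 or more Ccl5 UMIs for the 5 segments past the threshold and for Trbv13-2 and Trbv12-1, which did not pass; each line joins the values of a mouse, circles WT and squares KO. Trbv12-2 reaches 40.5% in KO3, and the lines of Trbv1, Trbv13-3 and Trbv31 fall in all 6 mice.

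The Ccl5 class differed in its make-up. Trdc was found in 30.3% of Ccl5 cells and 3.97% of the others, CD8 cells made up 34.2% and 36.7%, and CD4 cells 1.3% and 18.6%. All 3 tested genes of the gamma delta list, Trdc (2.50, SE 0.15), Tcrg-C2 (2.65, SE 0.30) and Trgv2 (2.84, SE 0.32), were higher in Ccl5 cells, while Trac (-0.43, SE 0.09) and Trbc2 (-0.25, SE 0.08) were lower. All 5 tested genes of the NK list were higher, and the list summed to 323 to 688 CPM in Ccl5 cells and 11.3 to 87.4 CPM in the others. Without the filter 8 of 101 segments passed, where 4.58% of 17285 genes did. With cells that held Trdc left out, an alternative chosen after seeing the data, 4 of 14 segments and 9.02% of genes passed, and Trbv12-2 had 1.81 (edgeR adjusted p = 4.11e-07). Among CD8 cells alone none of the 4 segments tested passed in edgeR, where 4.92% of 2580 genes did. Of the 5 called segments Trbv1 and Trbv3 were tested there, and Trbv12-2, Trbv13-3 and Trbv31 were below the filter. Trav15-2-dv6-2, below the filter, had 20 UMIs in 13 Ccl5 cells and 10 UMIs in 8 others and passed without it (3.35, SE 0.70, edgeR adjusted p = 0.000104), higher in 5 mice and with no UMI in the Ccl5 cells of WT3.

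The last comparison asked whether V segments differed between KO and WT mice (3 against 3). Over all T cells none of the 25 segments tested passed in edgeR, where 0.346% of 8668 genes passed. At an unadjusted p under 0.05 there were 6 segments, where 7.13% of genes passed, and DESeq2 called 0. Without the filter Trbv3 alone of 101 segments passed, lower in KO mice, where 0.633% of 17373 genes passed. Counting cells with a UMI in place of UMIs, also without the filter, gave 0 of 101 segments and 0.259% of genes. With the filter, the median log2 difference of UMIs was -0.05 over the 25 segments and 0.00 over all genes. Of the 101 segments with UMIs, 5 had CPM values that did not overlap between the genotypes, 2 higher and 3 lower in KO mice, against 10.1% of 17373 genes (4.81% higher and 5.28% lower). Among them, Trbv31 usage was 6.02%, 5.60% and 3.83% for WT1 to WT3, below the 7.5%, 8.69% and 6.75% of KO1 to KO3 (log2 difference, KO minus WT, 0.53, SE 0.16, edgeR adjusted p = 0.261). Trbv29 had 3.53%, 3.69% and 5.72% in WT and 2.5%, 2.56% and 3.30% in KO mice (-0.74, SE 0.25, edgeR adjusted p = 0.379). Trbv12-2 had 4.87%, 4.94% and 4.94% in WT and 8.75%, 5.23% and 9.0% in KO mice. Its usage did not overlap between the genotypes, but its CPM did, with KO2 between WT mice (0.52, SE 0.18, edgeR adjusted p = 0.429).

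The T cells of the genotypes differed in make-up. Ccl5 cells were 7.33%, 6.49% and 8.03% of the T cells of the 3 WT mice and 16.7%, 14.7% and 12.3% of those of the 3 KO mice, and cells with Trdc were 5.34%, 4.09% and 3.90% against 13.9%, 11.4% and 7.95%. Neither set of values overlapped. Since the T cells were a by-product of a B cell preparation, these shares need not be those of the node. The cause of the difference was not tested. In edgeR, Trdc rose by 1.36 (SE 0.18, adjusted p = 0.000287), Tcrg-C2 by 1.47 (SE 0.29, adjusted p = 0.0193) and Ccl5 by 0.81 (SE 0.09, adjusted p = 4.4e-05) on the log2 scale in KO T cells, while Trac had -0.30 (SE 0.07, adjusted p = 0.0511). No gene on the lists of the receptor complex and its signalling passed. Without Trdc cells, and without cells of 2 or more Ccl5 UMIs, still 0 segments passed in edgeR, where 0.272% and 0.252% of genes passed. Within CD8 cells Ccl5 itself did not pass between the genotypes (log2 difference 0.32, SE 0.1, edgeR adjusted p = 0.195).

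Within CD4 cells none of 8 segments tested passed in edgeR (3 at an unadjusted p under 0.05, 0 by DESeq2), where 0.0267% of 3744 genes passed and 6.78% had an unadjusted p under 0.05. Without the filter Trbv16 was higher and Trbv20 and Trbv29 lower in KO CD4 cells, 3 of 82 segments, where 0.189% of 13785 genes passed. Counting cells with a UMI in place of UMIs, also without the filter, gave 0 of 82 segments and 0.0145% of genes. Within CD8 cells none of 14 passed (4 at an unadjusted p under 0.05, 0 by DESeq2), where 0.51% of 6075 genes passed and 6.91% had an unadjusted p under 0.05. Without the filter Trbv20 was higher and Trbv16 lower in KO CD8 cells, 2 of 93 segments, where 0.39% of 15128 genes passed. The same count of cells without the filter gave 0 of 93 segments and 0.112% of genes. With the filter, the median log2 difference of UMIs over the segments was -0.12 in CD4 and -0.08 in CD8 cells, and 0.00 over all genes in both.

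Trbv16 and Trbv20 differed between the subsets in how they varied with genotype. The test of the subset by genotype term, with the mouse as block, passed for 2 of 17 segments, where 0.0534% of 5623 genes (3 genes) passed. Without the filter Trbv29 passed too, 3 of 99 segments, where 0.0938% of 15987 genes passed. Trbv16 took 7.62%, 6.43% and 7.07% of Trbv UMIs in the CD4 cells of WT1, WT2 and WT3 and 25.6%, 15.6% and 14.4% in those of KO1, KO2 and KO3. In CD8 cells it took 13.4%, 9.19% and 15.2% in WT and 9.57%, 5.59% and 6.88% in KO mice. In CD4 cells the KO values all lay above the WT values, and in CD8 cells the values overlapped, with KO1 above WT2. The log2 difference between genotypes was 1.27 (SE 0.27, edgeR adjusted p = 0.13) in CD4 and -0.84 (SE 0.22, edgeR adjusted p = 0.0784) in CD8 cells, neither past the threshold, and the difference of the 2 was -2.17 (SE 0.32, edgeR adjusted p = 0.000557). The counts were small: 16, 20 and 22 UMIs in 6, 7 and 9 WT CD4 cells, and 21, 23 and 21 UMIs in 5, 10 and 10 KO CD4 cells.

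Trbv20 differed in the opposite direction. It took 5.71%, 13.2% and 1.29% in CD4 cells of the WT mice and 4.88%, 2.04% and 0.00% in those of the KO mice, and 0.661%, 2.30% and 0.681% in WT and 3.04%, 3.91% and 5.67% in KO CD8 cells. Its genotype differences were -1.88 (SE 0.80, edgeR adjusted p = 0.649) in CD4 and 1.59 (SE 0.42, edgeR adjusted p = 0.0784) in CD8 cells, and the difference of the 2 was 3.56 (SE 0.73, edgeR adjusted p = 0.0476). The cells were few. Trbv20 was the leading Trbv in 4, 9 and 3 CD4 cells of the WT and 2, 2 and 0 of the KO mice. Among CD8 cells it led in 2, 6 and 2 of the WT and 2, 7 and 4 of the KO mice. Trbv29 had 3, 8 and 16 UMIs in the CD4 cells of WT1, WT2 and WT3 and 0 in those of all 3 KO mice. The KO CD4 cells held 82, 147 and 146 Trbv UMIs in all. Trbv29 was the leading Trbv in only 2, 4 and 3 of the WT CD4 cells, so its values also rest on few cells. In CD8 cells it had 30, 27 and 49 in WT and 12, 17 and 21 in KO mice. Its difference between the subsets did not pass with the filter (edgeR adjusted p = 0.259).

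**Figure D5:**
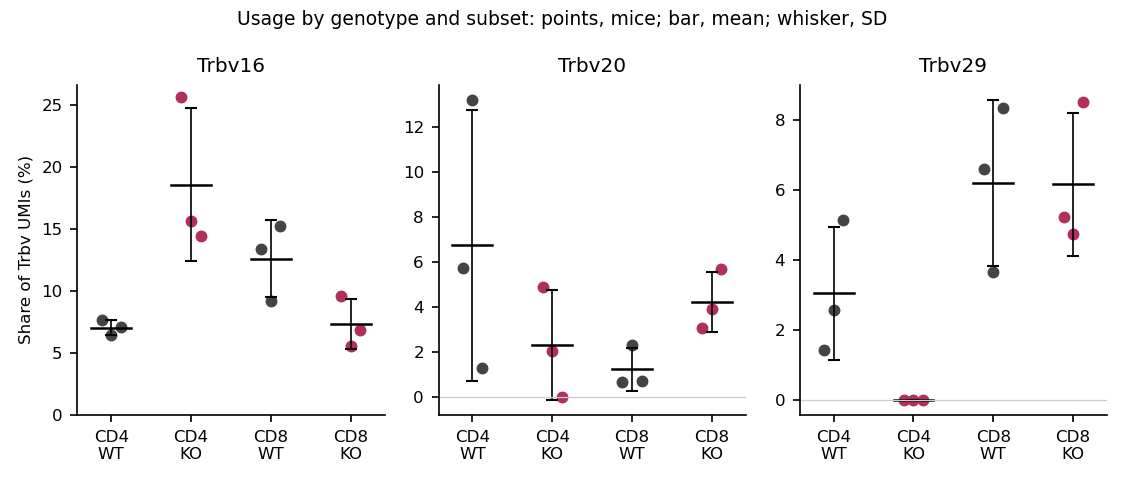
Share of Trbv UMIs (percent, vertical axis) of Trbv16, Trbv20 and Trbv29 in CD4 and CD8 cells of WT (grey) and KO (red) mice; points are mice, the bar is the mean and the whisker the SD of 3. Trbv16 is at 14.4% to 25.6% in KO and 6.43% to 7.62% in WT CD4 cells, and Trbv29 is at 0 in all 3 KO CD4 samples. Trbv29 led in 2, 4 and 3 CD4 cells of WT1, WT2 and WT3.

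Both calls rested on UMIs from few cells. DESeq2 gave adjusted p-values of 0.0778 for Trbv16 and 1.000 for Trbv20, and with cells with a UMI counted in place of UMIs, without the filter, the differences were -1.74 and 2.35 (edgeR adjusted p = 1.000 for both). The call for Trbv16 held without any 1 of the 6 mice (edgeR adjusted p from 0.000205 to 0.0177), and that for Trbv20 was lost without WT2 (0.646), WT3 (0.0515), KO2 (0.235) or KO3 (0.332). Of all alternatives, the Trbv20 call was lost in 9 of 16 and the Trbv16 call in 5 of 18. With cells of 2 or more Ccl5 UMIs left out the differences were -1.92 and 3.81 (edgeR adjusted p = 0.000705 and 0.00895). B cell markers summed to 292 to 398 CPM in WT and 258 to 1700 CPM in KO CD4 cells, and their part was not tested. Expansion of single clones was not measured, since no T cell receptor library was analysed here.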

How the data were processed

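Gene expression and hashtags were read in single cells of 6 mice. The values are raw counts of UMIs per gene and barcode as deposited by the authors, from Cell Ranger 7.0.1, per the file headers, on mm10, per the submitters' processing notes. The sources used here do not say how hashtags were called or how reads of near-identical segments were assigned.

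UMIs were summed per mouse and class and fitted over all genes with edgeR 4.0.16 (R 4.3.3; TMM, filterByExpr, quasi-likelihood test, two-sided, Benjamini-Hochberg, threshold 0.05). The mouse was the block between classes. Each SE was the size of the log2 difference divided by the root of edgeR's F statistic. CPM are per 1000000 UMIs with TMM sizes, except for marker lists, Pik3cg and totals, which used plain totals. DESeq2 1.42.0 and the other alternatives are given in the closing section. The fits were also run on simulated counts with the same spread for every gene, and the outcome is not reported here. Those counts did not model many UMIs of a segment from a single cell, so they do not vouch for such segments. No doublet caller was run, and barcodes without a single hashtag call were left out. Replicates are mice with separate hashtags.

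The members, lists and classes were chosen with earlier results of these data known. Named segments had passed the threshold and reached 20 CPM on average in a group (up to 12 per direction, or the 6 smallest p where fewer than 6 qualified), with the 6 leading Trav and Trbv segments, those of innate-like receptors and the list genes. Annotation and sequences came from GENCODE vM21 (GRCm38), to which all 163 identifiers matched. Wilson intervals have a 95% level. No promoter or protein sequence was used here.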

Additional observations from a re-analysis of the deposited data

Results flagged for a closer look

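In 24 groups of 6 mice (usage of single Trbv segments per class), 2 held a mouse far from the rest by Dixon's criterion. Chance gives that in about 1 of 20 groups. Trbv19 made up 7.26% of Trbv UMIs in the CD8 cells of KO2, and at most 2.97% in the other mice. Trbv17 made up 6.16% in the CD4 cells of KO3, and at most 1.29% in the other mice. Also, 2 segments had genotype effects that differed between CD8 and CD4 cells in edgeR's test of the difference: Trbv16 (-2.17 on the log2 scale, adjusted p = 0.000557) and Trbv20 (3.56, adjusted p = 0.0476).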

How the results depend on the processing

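The 37 segment results were recomputed under 632 alternatives in all. The direction and side of the threshold were kept in 559, the call was lost in 46, gained in 18, and the sign changed in 9. Trbv12-2 and Trbv29 between CD4 and CD8 cells, and Trbv12-2 and Trbv13-3 by Ccl5, kept their calls in each alternative that gave them a value. The counts of segments called moved more. Between CD4 and CD8 cells, 6 became 2 with DESeq2, 12 without the filter on low counts, and 0 with cells in place of UMIs (1 segment tested). Lanes 1 and 2 gave 0 each, and 3 to 7 passed without each mouse in turn (3 without WT2). The stricter coreceptor rule left only Trbv1 and Trbv16 to test. Both passed, higher in CD4 cells, where 12.4% of 2099 genes passed. The other segments called with the main settings were not tested there. Without Foxp3 and Ccl5 cells 3 of 9 segments passed, where 14.6% of 4223 genes did. For Foxp3 cells, 0 became 2 without the filter and 0 to 2 without each mouse (2 without KO1). With cells in place of UMIs and no filter, 0 passed there, and 0 between the genotypes in all T, CD4 and CD8 cells. For Ccl5 cells, 5 became 3 with DESeq2 (of 14, 6.1% of genes), 8 without the filter and 2 with cells in place of UMIs (of 6, 7.26%). Lane 1 gave 1 of 6 (6.99% of genes) and lane 2 gave 3 of 6 (6.75%). Among CD8 cells 0 passed, and 4 to 6 passed without each mouse. There were 4 with segments scaled to all Trav or all Trbv UMIs. Cells with a UMI of Trac, Trbc1 or Trbc2 and none of Ncr1 also gave 4, of 12 tested. Between the genotypes, 0 became 1 in all T cells, 3 in CD4 cells and 2 in CD8 cells without the filter. Lane 1 gave 1 of 16 segments in all T cells (Trbv31), where 0.319% of genes passed. Lane 2 gave 1 of 10 in CD8 cells (Trbv15), where 0.227% of genes passed. Without each mouse in turn, 0 to 1 passed in all T, CD4 and CD8 cells. Leaving out KO2 gave 1 of 29 in all T cells (0.401% of genes) and 1 of 11 in CD4 cells (0.134%). Leaving out WT2 or KO1 gave 1 of 14 (0.117%) and 1 of 15 (0.476%) in CD8 cells. The difference of genotype effects between subsets had 2 calls, and 0 with DESeq2, 0 with cells in place of UMIs (with or without the filter), 0 in lane 1, 0 in lane 2, 1 with total UMIs as library size, 1 with segments scaled to all Trav or all Trbv UMIs, and 1 to 3 without each mouse (1 without WT2, WT3, KO2 or KO3).

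The sign turned for Trbv13-2 by Ccl5 among CD8 cells (0.18), Trbv16 by genotype in all T cells in lane 1 (0.15), Trbv13-2 by genotype in CD4 cells in lane 2 (0.08), Trbv15 by genotype in CD8 cells in lane 1 (0.35) and Trbv17 between the subsets' genotype effects with DESeq2 (0.28). Leaving out each mouse gave -0.03 (without WT1) to 0.97 for Trbv16 in Foxp3 cells, and, with the sign turned without KO3, -0.99 to 0.08 for Trbv13-2 by genotype in CD4 cells, -0.7 to 0.13 for Trbv17 by genotype in CD8 cells, and -2.67 to 4.97 for Trbv17 between the subsets. Total UMIs as library size moved the median of all genes from 0.01 to 0.17 between CD4 and CD8 cells and from 0.01 to 0.14 for Foxp3 cells. For all of these the cause was not tested; a lane holds part of the cells.

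Without the mouse block, 4 segments passed between CD4 and CD8 cells (Trbv19 and Trbv14 were lost, adjusted p = 0.0927 and 0.0934 in edgeR), 0 for Foxp3 cells and 4 for Ccl5 cells (Trbv3 was lost, adjusted p = 0.0526). Mouse numbers follow the hashtag order and pair no mice. With the number as a replicate block, 0 passed in all T cells, 0 in CD4 cells and 1 in CD8 cells (Trbv16, -0.84, edgeR adjusted p = 0.0441).

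Chosen after seeing the data were the scaling to all segment UMIs, cells counted without a filter, and the fits without B cell receptor contigs, without Trdc or without Ccl5 cells. The scaling tested over segments alone was not run, and Ccl5 among CD4 cells could not be fitted, since 2 mice had no such cells. For Foxp3 cells, each lane, the stricter Foxp3 rule, the constant-gene rule, filtered cell counts and the fit without KO2 left no segment to test. Low UMI counts limit all comparisons: 1085 of 2551 Trbv-positive cells rested on 1 UMI of the leading segment.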
